A study of Homo sapiens with 6 samples.

Results

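The 10 genes described here belong to the immediate early response and were followed in HEK 293FT cells with and without an introduced CTRB1 gene. They are EGR1, EGR3, IER2, IER3, IER5, KLF6, KLF10, DUSP1, ZFP36 and MYC. They were chosen by name, as the rows of the deposited table that carry one of these symbols, and all 10 were found among its 20345 genes. The CTRB1 cells were 3 libraries titled HEK 293FTGFP-CTRB1. They were set against 3 libraries titled HEK 293FTGFP and marked Vec, called GFP cells. CTRB1 is chymotrypsinogen B1, a digestive protease precursor of the exocrine pancreas. HEK 293FT cells descend from human embryonic kidney and express the large T antigen of SV40. Both titles name green fluorescent protein (GFP). The titles and protocols used here name no promoter for the introduced gene and do not say whether the cells are 1 clone or a pool, or whether the libraries came from separate cultures. The p-values therefore measure the spread between these libraries, which may be technical.

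Immediate early genes are transcribed within minutes of a growth factor, serum or stress signal, without new protein synthesis. The signal usually travels through RAS and the kinase ERK to factors already bound at the promoters, chiefly SRF with its ELK partners and CREB. EGR1 and EGR3 are zinc finger transcription factors, IER2, IER3 and IER5 are small regulatory proteins, and KLF6 and KLF10 are Krueppel-like zinc finger factors. DUSP1 is a phosphatase that switches off MAP kinases, ZFP36 is a protein that binds AU-rich elements of mRNAs and speeds their decay, and MYC is the growth-promoting transcription factor. Most of their own mRNAs decay quickly.

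CTRB1 itself, the check of the labels, had 22749, 22161 and 19345 counts in the CTRB1 libraries, against 1, 0 and 5 in the GFP libraries. The CTRB1 libraries held 27514767 to 32522018 counts and the GFP libraries 52571457 to 159616285 counts, so each GFP library was deeper than each CTRB1 library. Gene levels are given as CPM, the read counts scaled to library size with TMM factors. The smallest level taken as detected, 3 counts, equals 0.0922 to 0.109 CPM in the CTRB1 libraries and 0.0188 to 0.0571 CPM in the GFP libraries, for counting error only. Of 10 measured genes used as markers of HEK293 cells, 8 had an FPKM of at least 1 in every library, where FPKM is the authors' value scaled by gene length and depth. Their list summed to 886 to 933 CPM in CTRB1 cells and 973 to 998 CPM in GFP cells. Most of this sum came from a single gene, which averaged 731 CPM over the 6 libraries. In the test described below, 3 of 8 genes of this list were higher and 2 lower in CTRB1 cells. The shares were 37.5% and 25%, beside 18.6% and 18.9% of all genes, and the median log2 change was 0.10. Of markers of other cells, 1 of 8 fibroblast genes (COL1A1), 2 of 4 epithelial genes (CDH1 and EPCAM), 0 of 3 endothelial genes and 0 of 6 pancreatic acinar genes reached that level. The fibroblast list summed to 40.7 to 48.7 CPM in CTRB1 cells and 38.6 to 39.9 CPM in GFP cells. The epithelial list summed to 10.4 to 13.5 CPM in CTRB1 cells and 11.1 to 11.5 CPM in GFP cells. The endothelial list summed to 0.758 to 0.861 CPM in CTRB1 cells and 0.783 to 1.23 CPM in GFP cells, the acinar list to 0 to 0.277 CPM in CTRB1 cells and 0.157 to 0.267 CPM in GFP cells. CD3E, HBB, KRT14, PRSS1, CELA3A, PNLIP and AMY2A had no count in any library. The part of these markers in the results below was not tested.

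Of the 10 genes, 6 were lower in CTRB1 cells (EGR1, EGR3, IER2, IER3, IER5 and DUSP1), 2 were higher (KLF10 and MYC) and 2 did not pass the test (KLF6 and ZFP36). Among all 11961 genes tested, 18.9% were called lower and 18.6% higher, at a Benjamini-Hochberg adjusted p under 0.05 in edgeR's quasi-likelihood test. These are 2258 genes lower and 2221 higher, a split that became 1873 and 2722 with upper-quartile scaling and 1942 and 1250 with limma on log2(FPKM + 1). The libraries of both groups did not overlap for the same 8 genes, 6 lower and 2 higher, beside 25% of all genes in each direction. The changes were small: IER2 was 1.43-fold lower and MYC 6.75% higher. In bulk RNA, fewer cells that express a gene and less RNA per cell cannot be told apart. The median log2 change over the 10 genes was -0.25, beside 0.0033 over all genes tested. EGR3 entered the test only through the GFP libraries, where its FPKM was just above the limit of 1. The other 9 had an FPKM of at least 1 in all 6 libraries, and of these 5 were lower and 2 higher, with a median log2 change of -0.22.

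**Figure D1:**
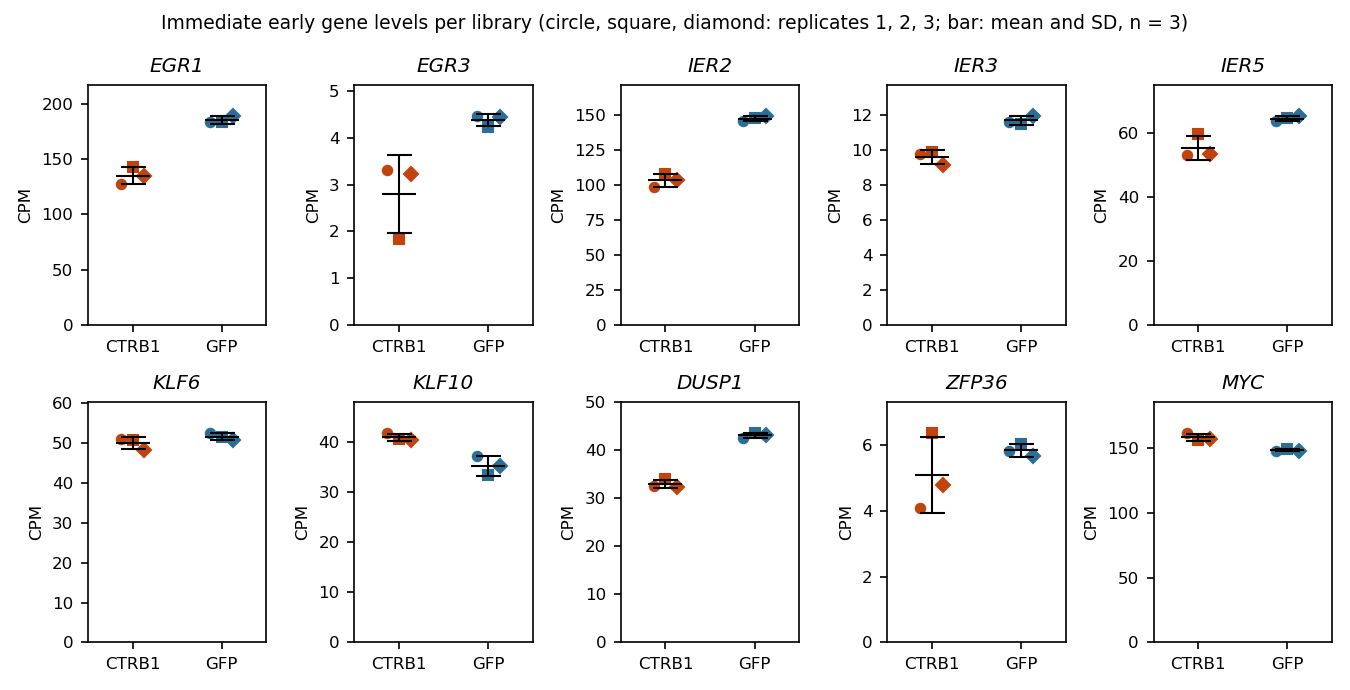
Level of each gene in CPM (vertical axis, from 0) in the 3 CTRB1 libraries and the 3 GFP libraries; bars are the mean and SD, n = 3. The CTRB1 libraries sit below the GFP libraries for EGR1, EGR3, IER2, IER3, IER5 and DUSP1, above them for KLF10 and MYC, and overlap with them for KLF6 and ZFP36.

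EGR1 and IER2, the genes with the highest FPKM among those that fell, had log2 changes of similar size. EGR1 (ENSG00000120738, chromosome 5, bases 137801179 to 137805004 as the table numbers them, on a build that it does not name) encodes the factor that binds GC-rich sites in growth and differentiation genes. It had 127, 143 and 135 CPM in the CTRB1 libraries, against 183, 183 and 189 CPM in the GFP libraries. The groups did not overlap, and CTRB1 replicate 2 was the highest of its group. The mean was 135 ± 7.82 CPM in CTRB1 cells and 185 ± 3.27 CPM in GFP cells (SD, n = 3 each). Its log2 change was -0.46 ± 0.0365 (SE; edgeR adjusted p = 7.1e-06), which is 27.2% lower.

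IER2 (ENSG00000160888, chromosome 19, positions 13261229 to 13265722) encodes a nuclear protein made early after growth stimulation. It had 98.3, 108 and 104 CPM in the CTRB1 libraries, against 145, 148 and 149 CPM in the GFP libraries. Again no CTRB1 library reached the lowest GFP library. Its log2 change was -0.51 ± 0.0323 (SE; edgeR adjusted p = 1.32e-06). Of all 11961 genes tested, 99 had a log2 change as low as that of IER2 and 140 one as low as that of EGR1, both counts including the gene itself.

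The promoter windows of EGR1 and IER2 are printed because their log2 changes were close while their windows hold different elements. Both are 250 bases before to 50 after the RefSeq start site on GRCh38.p14, from a table that had an entry for 6 of the 10 genes. Capitals mark CArG boxes, the sites of SRF (CC, 6 bases of A or T, GG), and the CREB half-site TGACG or its reverse CGTCA.
EGR1, chr5:138465229-138465528, plus strand: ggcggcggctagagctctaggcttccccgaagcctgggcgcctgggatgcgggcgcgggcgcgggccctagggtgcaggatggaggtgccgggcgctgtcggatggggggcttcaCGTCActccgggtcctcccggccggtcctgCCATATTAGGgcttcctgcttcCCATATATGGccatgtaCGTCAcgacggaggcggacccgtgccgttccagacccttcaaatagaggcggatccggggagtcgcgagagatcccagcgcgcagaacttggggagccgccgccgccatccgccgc
IER2, chr19:13150161-13150460, plus strand: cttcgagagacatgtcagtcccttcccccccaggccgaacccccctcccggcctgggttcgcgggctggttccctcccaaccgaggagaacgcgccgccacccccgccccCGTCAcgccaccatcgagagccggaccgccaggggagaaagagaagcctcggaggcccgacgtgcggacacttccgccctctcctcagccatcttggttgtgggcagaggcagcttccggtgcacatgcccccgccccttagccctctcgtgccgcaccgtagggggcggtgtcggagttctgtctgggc
The EGR1 window holds 2 CArG boxes, which begin 105 and 83 bases before the start site, and 2 CREB half-sites. The IER2 window holds no CArG box, 1 CREB half-site and 4 copies of GGGCGG, the GC box that SP and KLF factors bind. Searched on both strands, CArG boxes occur in 1.3% of 34943 promoter windows of this length, TGACG in 24.5% and GGGCGG in 44.9%. These are matches of letters, and binding was not measured.

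The profile of EGR1 over the 6 libraries was close to that of several genes outside the set. Likeness was the root mean square difference between the log2 CPM of both genes, each taken relative to its own mean over the 6 libraries. The 5 nearest non-members were DHX37, an RNA helicase gene (0.0324), JUN, which encodes an AP-1 subunit (0.0352), SOX4, a transcription factor gene (0.0383), ZDHHC14, a palmitoyltransferase gene (0.0390), and ATP6V1D, which encodes a subunit of the vacuolar proton pump (0.0410). For IER2 they were DHX37 (0.0182), SOX4 (0.0238), LPCAT1, a lysophospholipid acyltransferase gene (0.0275), ATP6V1D (0.0352) and FOS, the partner of JUN in AP-1 (0.0371). With 2 groups of 3 libraries, likeness is mostly a like size of the difference between the groups. DHX37, for instance, averaged 70.8 CPM in CTRB1 cells and 101 CPM in GFP cells.

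EGR3, the other EGR factor of the set, was scarce in both groups. EGR3 (ENSG00000179388, chromosome 8, positions 22545172 to 22550815) had 105, 60 and 89 counts in the CTRB1 libraries, against 234, 275 and 707 counts in the deeper GFP libraries. In CPM these were 3.32, 1.85 and 3.23 in CTRB1 cells and 4.47, 4.23 and 4.44 in GFP cells. CTRB1 replicate 2, which had the highest EGR1 of the CTRB1 libraries, had the lowest EGR3. The coefficient of variation among CTRB1 libraries was 29.5%, against 11.2% from counting alone. Its log2 change was -0.65 ± 0.185 (SE; edgeR adjusted p = 0.0177), with a 95% interval of -1.06 to -0.24. Without CTRB1 replicate 2 it was -0.42 (edgeR adjusted p = 0.0241). It no longer passed when GFP replicate 1 (edgeR adjusted p = 0.0504) or GFP replicate 3 (edgeR adjusted p = 0.0517) was left out. In the FPKM scale with 1 added it was -0.38, a scale that understates changes of low genes. With no filter on expression, where 13.1% of 17975 genes were called lower and 10.5% higher, EGR3 had a log2 change of -0.66 (edgeR adjusted p = 0.0192).

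The other EGR genes were too low to test. EGR2 had 1.26, 2.18 and 1.38 CPM in the CTRB1 libraries, against 1.34, 1.74 and 1.43 CPM in the GFP libraries. EGR4 had 4, 2 and 0 counts in the CTRB1 libraries, against 0, 2 and 19 in the GFP libraries. NAB1 and NAB2 encode corepressors that bind EGR proteins. NAB1 was higher, at 50.7 ± 3.48 CPM in CTRB1 cells and 44.7 ± 2.02 CPM in GFP cells (SD, n = 3 each; log2 change 0.18; edgeR adjusted p = 0.0246). It did not pass with GFP replicate 1 left out (edgeR adjusted p = 0.0941) or CTRB1 replicate 3 left out (edgeR adjusted p = 0.0773). NAB2 had a log2 change of 0.039 (edgeR adjusted p = 0.611). Of 9 genes listed as early serum, ERK or EGR targets, 8 were tested, 3 were higher and 2 lower. The shares were 37.5% and 25%, beside 18.6% and 18.9% of all genes. VEGFA, an angiogenic growth factor gene, had a log2 change of 0.78 and TXNIP, of redox and glucose control, one of 0.58. GADD45B, a stress sensor gene, had -0.41 and TGFB1, a growth factor gene, -0.22.

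The remaining IER genes fell by less than IER2. IER3 (ENSG00000137331, chromosome 6, positions 30710976 to 30712331) encodes a membrane-associated survival factor. It had 9.76, 9.88 and 9.15 CPM in the CTRB1 libraries, against 11.6, 11.5 and 12.0 CPM in the GFP libraries. The groups did not overlap, and its log2 change was -0.29 ± 0.0778 (SE; edgeR adjusted p = 0.0145). Without GFP replicate 3, the deepest library, it was -0.27 and did not pass (edgeR adjusted p = 0.067).

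IER5 (ENSG00000162783, chromosome 1, positions 181057638 to 181059977) encodes a regulator that is known to bind and activate HSF1, the heat shock factor. It had 53.2, 59.8 and 53.5 CPM in the CTRB1 libraries, against 63.7, 64.7 and 65.4 CPM in the GFP libraries. CTRB1 replicate 2 stood above both other CTRB1 libraries but below every GFP library. The log2 change was -0.22 ± 0.0446 (SE; edgeR adjusted p = 0.00319). IER5L, its paralogue, had 3.95 ± 0.447 CPM in CTRB1 cells and 4.10 ± 0.361 CPM in GFP cells (SD, n = 3 each; edgeR adjusted p = 0.803).
The IER5 window is shown because it holds an inverted repeat of the heat shock element, GAANNTTC, in capitals, a sequence found in 6.79% of the windows.
IER5, chr1:181088450-181088749, plus strand: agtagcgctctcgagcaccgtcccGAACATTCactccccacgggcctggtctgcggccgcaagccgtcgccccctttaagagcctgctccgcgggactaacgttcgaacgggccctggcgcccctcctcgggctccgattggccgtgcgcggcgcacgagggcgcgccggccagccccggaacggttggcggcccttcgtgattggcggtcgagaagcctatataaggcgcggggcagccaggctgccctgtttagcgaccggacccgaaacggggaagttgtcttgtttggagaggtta
No CArG box, TGACG or GGGCGG was found in these letters.

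**Figure D2:**
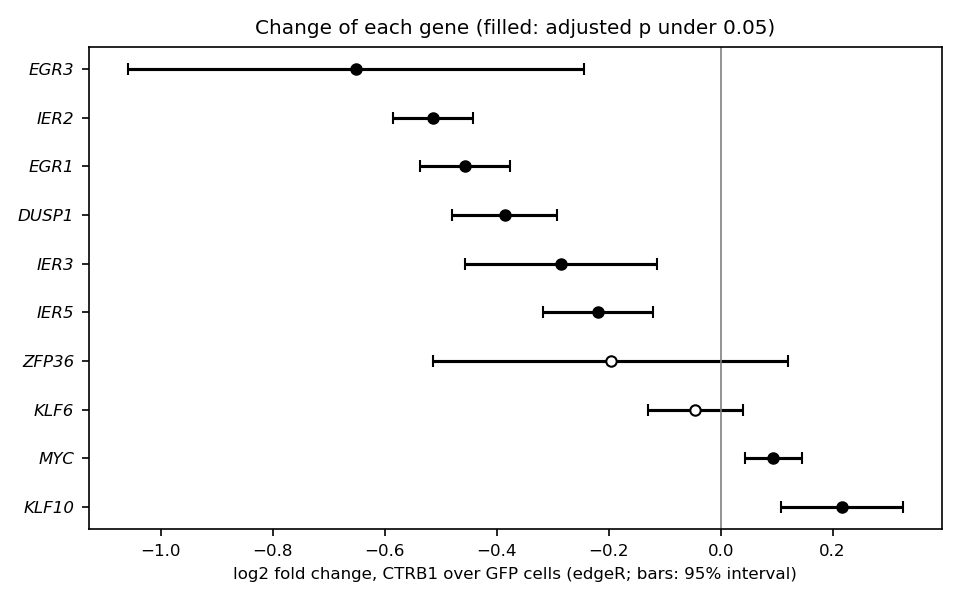
The log2 fold change of CTRB1 over GFP cells (horizontal axis) of each gene with its 95% interval; filled points passed an adjusted p of 0.05 in edgeR. The intervals of IER2 (-0.59 to -0.44) and EGR1 (-0.54 to -0.38) lie well below 0, those of ZFP36 (-0.51 to 0.12) and KLF6 (-0.13 to 0.040) include it, and those of MYC (0.044 to 0.14) and KLF10 (0.11 to 0.33) lie above it.

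Of the KLF genes of the set, KLF10 was higher and KLF6 did not pass. KLF10 (ENSG00000155090, chromosome 8, positions 103661007 to 103668130), also known as the TGF-beta inducible early gene, had 41.8, 40.7 and 40.5 CPM in the CTRB1 libraries, against 37.3, 33.4 and 35.2 CPM in the GFP libraries. The lowest CTRB1 library lay above the highest GFP library, and the spread was wider among GFP libraries (5.52% of the mean, with 1.96% from counting) than among CTRB1 libraries (1.78%). The log2 change was 0.22 ± 0.0497 (SE; edgeR adjusted p = 0.00602).

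KLF6 (ENSG00000067082, chromosome 10, positions 3818188 to 3827473), a ubiquitous member with tumour suppressor roles, had 50.9, 50.8 and 48.2 CPM in the CTRB1 libraries, against 52.5, 51.6 and 50.7 CPM in the GFP libraries. The ranges overlapped. The log2 change was -0.045 ± 0.0384 (SE; edgeR adjusted p = 0.381), with a 95% interval from -0.13 to 0.040, so a fall of the size seen for EGR1 lies outside the interval. Per length, in FPKM, both genes changed places: KLF10 averaged 11.0 ± 0.229 and KLF6 10.2 ± 0.407 FPKM in CTRB1 cells, against 9.52 ± 0.663 and 10.7 ± 0.163 FPKM in GFP cells (SD, n = 3 each), without overlap of the 2 genes in either group.

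Of the 17 KLF genes in the table, 12 were tested, of which 4 were higher and 1 lower, with a median log2 change of 0.087. These are 33.3% higher and 8.33% lower, beside 18.6% and 18.9% of all genes. KLF12, a repressor of the AP-2alpha gene, averaged 46.7 ± 3.55 CPM in CTRB1 cells and 36.1 ± 1.04 CPM in GFP cells (SD, n = 3 each; log2 change 0.37; edgeR adjusted p = 0.000565). KLF9 and KLF15, both glucocorticoid-responsive, were higher by 0.14 and 0.24 in log2 (edgeR adjusted p = 0.024 and 0.0317). On the FPKM scale neither passed (limma on log2(FPKM + 1), adjusted p = 0.116 and 0.0629). KLF9 did not pass without GFP replicate 2 (edgeR adjusted p = 0.0677), GFP replicate 3 (0.108) or CTRB1 replicate 1 (0.0592). KLF15 did not pass without GFP replicate 1 (edgeR adjusted p = 0.0635), GFP replicate 3 (0.139), CTRB1 replicate 1 (0.0745) or CTRB1 replicate 2 (0.0657). KLF16 was lower, at 43.6 ± 1.39 CPM in CTRB1 cells and 51.2 ± 1.42 CPM in GFP cells (SD, n = 3 each; log2 change -0.23; edgeR adjusted p = 0.00148). KLF2 and KLF4, also counted as immediate early, had 1.67 and 7.36 CPM in CTRB1 cells and 1.82 and 7.13 CPM in GFP cells. KLF2 was below the expression limit, and KLF4 had an edgeR adjusted p of 0.769. Of 10 TGF-beta target genes, 8 were tested, 0 were called higher and 2 lower in edgeR. These are 0% and 25%, beside 18.6% and 18.9% of all genes. The lower ones were SKI, at a log2 change of -0.16, and TGFB1, at -0.22. At an unadjusted p under 0.05 in edgeR, 1 of the 8, SKIL, was higher (log2 change 0.11).

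DUSP1 fell, and of 7 related phosphatase genes tested, DUSP5, DUSP7 and DUSP9 were lower in every alternative tried. DUSP1 (ENSG00000120129, chromosome 5, positions 172195093 to 172198198), which dephosphorylates p38, JNK and ERK in the nucleus, had 32.5, 33.9 and 32.4 CPM in the CTRB1 libraries, against 42.5, 43.5 and 43.1 CPM in the GFP libraries. Each group was tight, with coefficients of variation of 2.64% in CTRB1 and 1.11% in GFP libraries, below the 3.16% and 1.78% that counting alone gives. The mean was 32.9 ± 0.868 CPM in CTRB1 cells and 43.0 ± 0.479 CPM in GFP cells (SD, n = 3 each). The log2 change was -0.39 ± 0.0425 (SE; edgeR adjusted p = 6.73e-05).
Its window is printed for its cyclic AMP response elements, in capitals with the TATA box TATAAA.
DUSP1, chr5:172771146-172771445, minus strand: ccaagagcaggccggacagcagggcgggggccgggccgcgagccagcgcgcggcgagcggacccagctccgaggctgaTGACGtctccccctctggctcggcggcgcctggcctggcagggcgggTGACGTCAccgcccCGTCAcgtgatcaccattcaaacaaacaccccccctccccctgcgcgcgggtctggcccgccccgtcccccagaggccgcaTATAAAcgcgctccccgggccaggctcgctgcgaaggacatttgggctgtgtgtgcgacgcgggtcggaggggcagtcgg
The full element TGACGTCA, which reads as TGACG on both strands, begins 125 bases before the start site and occurs in 1.84% of all windows. Of 4 half-sites counted, 2 are the strands of this element, and TATAAA, found in 11.6% of the windows, begins 30 bases before the start site.

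Among 10 MAP kinase phosphatase genes 8 were tested, of which 6 were lower and 0 higher in edgeR. These are 75% and 0%, beside 18.9% and 18.6% of all genes. At an unadjusted p under 0.05 none of the 8 was higher either. DUSP5, a nuclear ERK phosphatase, averaged 5.29 ± 0.586 CPM in CTRB1 cells and 8.34 ± 0.0902 CPM in GFP cells (SD, n = 3 each; log2 change -0.65; edgeR adjusted p = 0.000613). DUSP9 and DUSP7, cytoplasmic ERK phosphatases, fell by 0.22 and 0.21 in log2 (edgeR adjusted p = 0.00131 and 0.00332). DUSP2 and DUSP10 were scarce, at 2.03 and 2.39 CPM in CTRB1 cells and 2.81 and 3.07 CPM in GFP cells. DUSP10 had an FPKM of at least 1 in 0 CTRB1 and 3 GFP libraries and DUSP2 in 2 CTRB1 and 3 GFP libraries, so the filter favoured a lower value. Their calls (edgeR adjusted p = 0.0387 and 0.0440) were lost with DESeq2 (adjusted p = 0.0644 for DUSP2 and 0.125 for DUSP10) and, in edgeR, with no expression filter (adjusted p = 0.0529 and 0.0701), and held in 7 of 16 and 3 of 16 alternatives. DUSP8 and DUSP16 did not pass (log2 changes 0.080 and 0.078). DUSP6, the cytoplasmic ERK phosphatase that is a common readout of the pathway, stayed below the expression limit at 0.571 CPM in CTRB1 cells and 0.809 CPM in GFP cells.

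ZFP36 (ENSG00000128016, chromosome 19, positions 39897453 to 39900052) had CTRB1 libraries on both sides of the GFP libraries. It had 4.10, 6.37 and 4.79 CPM in the CTRB1 libraries, from 130, 207 and 132 counts, against 5.82, 6.05 and 5.66 CPM in the GFP libraries. CTRB1 replicate 2 lay above every GFP library and the other two lay below all of them. The coefficient of variation among CTRB1 libraries was 22.8%, against 8.19% from counting alone. The log2 change was -0.20 ± 0.144 (SE; edgeR adjusted p = 0.308; 95% interval -0.51 to 0.12). Without CTRB1 replicate 2 it was -0.39 and passed (edgeR adjusted p = 0.0274). Its paralogues ZFP36L1 and ZFP36L2 did not pass, at 0.0086 and 0.059 in log2 (edgeR adjusted p = 0.895 and 0.169). The heptamer TATTTAT, the core of the element that ZFP36 binds, occurs in the 3' UTR of 5 of the 10 genes (GENCODE v29, the transcript with the longest coding sequence) and of 31.7% of the tested genes with a 3' UTR. Of 37 other immediate early genes tested, 23 (62.2%) hold it. IER3 and IER5 hold 4 copies each and DUSP1 and ZFP36 3 each. At least 3 copies occur in 5.66% of the tested genes and in 10.8% of the other immediate early genes. EGR1, EGR3, IER2, KLF10 and MYC hold 0 copies and KLF6 holds 1.

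MYC (ENSG00000136997, chromosome 8, positions 128747680 to 128753674) was slightly higher. It had 161, 156 and 157 CPM in the CTRB1 libraries, against 148, 149 and 147 CPM in the GFP libraries. The groups did not overlap, although the gap was narrow. The mean was 158 ± 2.77 CPM in CTRB1 cells and 148 ± 0.904 CPM in GFP cells (SD, n = 3 each), and the log2 change was 0.094 ± 0.0227 (SE; edgeR adjusted p = 0.00789). The call did not hold in FPKM, at a log2 change of 0.076 (limma on log2(FPKM + 1), adjusted p = 0.0941).

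The MYC and MAX network showed small shifts. Of 13 genes 12 were tested, of which 5 were higher and 1 lower. The shares were 41.7% and 8.33%, beside 18.6% and 18.9% of all genes. MLXIPL, which encodes the glucose-sensing factor ChREBP, had a log2 change of 0.37, and MLX, the partner of both MLX-interacting factors, one of 0.12 (edgeR adjusted p = 0.00389 and 0.00639). MNT and MXI1, repressors that compete with MYC for MAX, were higher by 0.17 and 0.11 in log2 (edgeR adjusted p = 0.015 and 0.0333). Neither passed without GFP replicate 1 (edgeR adjusted p = 0.0816 and 0.0872) or GFP replicate 3 (0.067 and 0.0753). MXI1 also did not pass without GFP replicate 2 (edgeR adjusted p = 0.0717), CTRB1 replicate 1 (0.0963) or CTRB1 replicate 3 (0.0696), or with no expression filter (0.0517). MLXIP, which encodes MondoA, had -0.15 (edgeR adjusted p = 0.00553). MAX itself had -0.078 (edgeR adjusted p = 0.058), and MYCN, with 0, 2 and 8 counts in the CTRB1 libraries against 22, 22 and 37 in the GFP libraries, was not tested. Of 15 direct MYC target genes, 8 were lower and 2 higher (53.3% and 13.3%), beside 18.9% and 18.6% of all genes. Their median log2 change was -0.071. LDHA, of lactate formation, had a log2 change of -0.24, NME1, a nucleoside diphosphate kinase gene, -0.25, NCL, which encodes nucleolin, -0.12, and NPM1, which encodes nucleophosmin, -0.071. The higher ones were SHMT2, of mitochondrial serine metabolism (0.49), and CCND2, which encodes cyclin D2 (0.45).

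**Figure D3:**
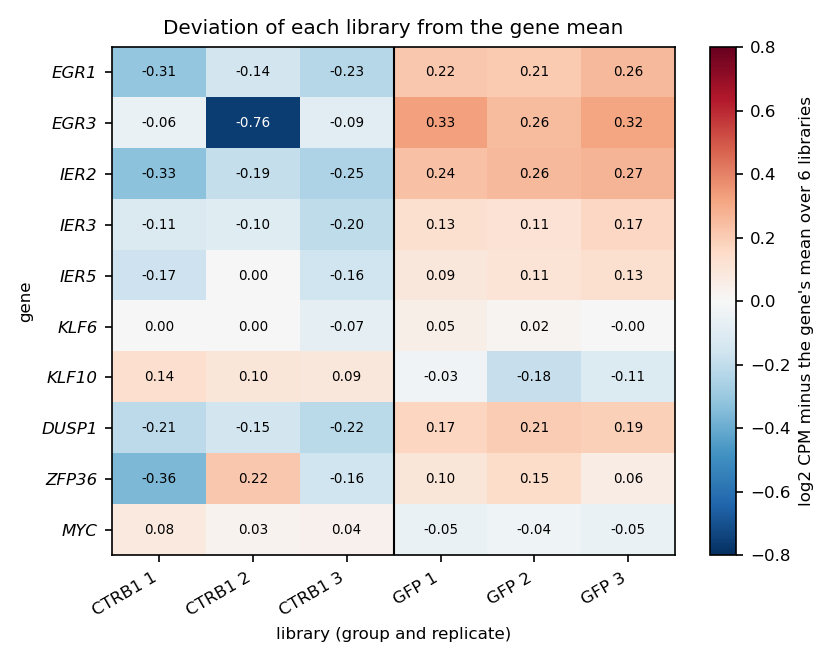
Each cell is the log2 CPM of a gene in a library minus the mean of that gene over all 6 libraries, CTRB1 libraries on the left. CTRB1 replicate 2 departs from its group for ZFP36 (0.22 against -0.36 and -0.16) and EGR3 (-0.76 against -0.055 and -0.087).

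Within the CTRB1 group, several genes were highest in the same library. CTRB1 replicate 2 was the highest of the 3 CTRB1 libraries for 6 of the 10 genes, namely EGR1, IER2, IER3, IER5, DUSP1 and ZFP36. It was the highest for 33.4% of all genes tested. These are the genes that were lower in CTRB1 cells, EGR3 excepted and ZFP36 added. The spread of EGR1, IER2 and IER5 among CTRB1 libraries (5.79%, 4.63% and 6.78% of the mean) was above that expected from counting (1.56%, 1.79% and 2.44%). Among GFP libraries it was 1.77%, 1.32% and 1.35%. ZFP36 also had a spread among CTRB1 libraries (22.8%) above that from counting (8.19%). For IER3 and DUSP1 the spread among CTRB1 libraries (4.05% and 2.64%) was below that from counting (5.87% and 3.16%). The order of the CTRB1 libraries for IER3 and DUSP1 therefore lies within counting error. This library held 32522018 counts, the most of the CTRB1 libraries, beside 31557364 and 27514767 in the others. The pattern was noticed in the values, and the part of depth in it was not tested.

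Per length, the order of the genes was nearly the same in both groups. MYC was the most abundant, at 60.6 ± 1.37 FPKM in CTRB1 cells and 57.4 ± 1.03 FPKM in GFP cells (SD, n = 3 each). EGR1 followed at 36.8 ± 1.905 FPKM in CTRB1 cells and 50.9 ± 0.523 FPKM in GFP cells. The mean FPKM in CTRB1 cells was then 31.4 ± 1.70 for IER2, 20.3 ± 1.27 for IER5 and 14.0 ± 0.309 for DUSP1. In GFP cells these were 45.5 ± 1.27 for IER2, 23.8 ± 0.307 for IER5 and 18.4 ± 0.317 for DUSP1. MYC thus stood further above EGR1 in CTRB1 cells than in GFP cells. Below the KLF genes, the mean FPKM in CTRB1 cells was 6.51 ± 0.293 for IER3, 2.503 ± 0.559 for ZFP36 and 0.567 ± 0.158 for EGR3. In GFP cells it was 7.76 ± 0.177 for IER3, 2.98 ± 0.115 for ZFP36 and 1.03 ± 0.0210 for EGR3. The libraries of neighbouring genes in this order did not overlap in either group.

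Other immediate early genes were divided, with more lower than higher. Of 46 listed outside the set, 37 were tested, of which 13 were lower and 6 higher, against the 18.9% and 18.6% of all genes. Their median log2 change was -0.069. ARC entered the test only through the GFP libraries and was not called (edgeR adjusted p = 0.0722). DUSP2 and DUSP5, counted above among the phosphatase genes, were among the 13 lower. The call of DUSP2 held in 7 of 16 alternatives. MCL1, an anti-apoptotic gene, had a log2 change of -0.38 and CCN1, a matricellular protein gene, -0.20 (edgeR adjusted p = 8.36e-07 and 0.000251). The AP-1 genes FOS, JUNB, JUN and FOSB had log2 changes of -0.57, -0.52, -0.41 and -0.35, all with edgeR adjusted p of 5.07e-05 or less. The 6 higher genes, named after their values were seen, were NR4A1, GADD45A, PPP1R15A, ID1, ATF3 and PLK3, with log2 changes of 0.23, 0.22, 0.12, 0.30, 0.15 and 0.51. PLK3 overlapped between the groups. Only 3 of the list were higher in each fit without CTRB1 replicate 1 or without any one of the GFP replicates. They were not the same 3 genes each time. NR4A1 and GADD45A passed in all 17 alternatives, PPP1R15A in 13 of 17, ID1 in 11 of 17, ATF3 in 10 of 17 and PLK3 in 10 of 16.

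**Figure D4:**
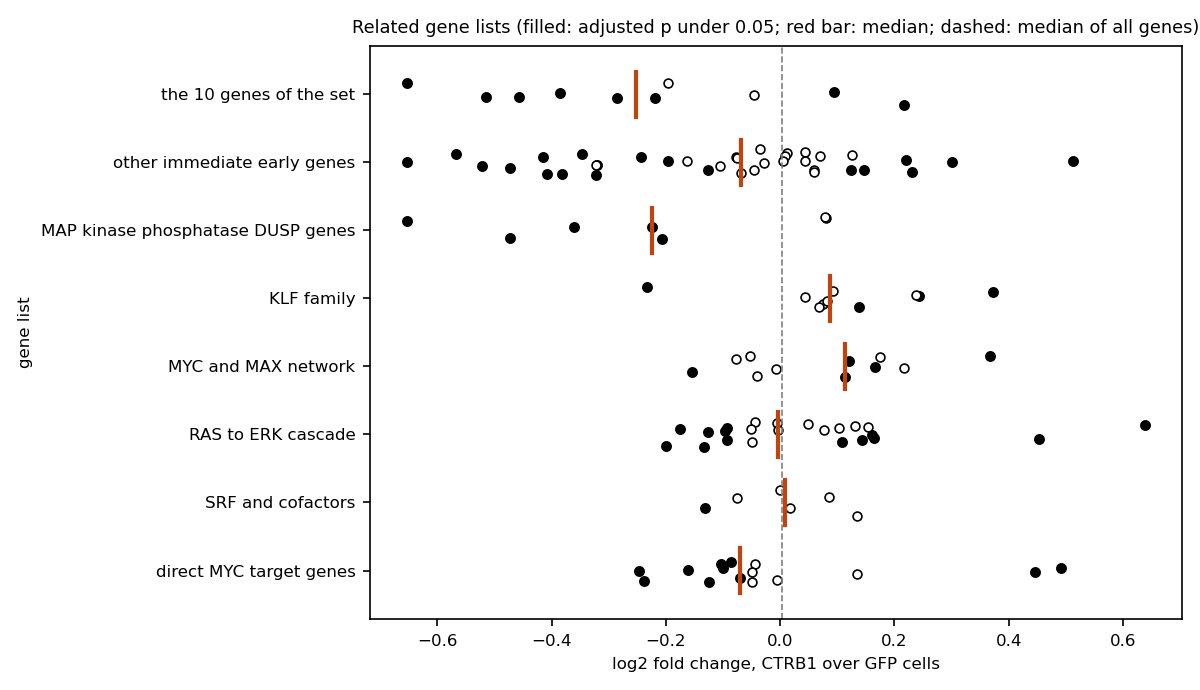
The log2 fold change of CTRB1 over GFP cells (horizontal axis) of each tested gene of the related lists, with the 10 genes in their own row and left out of the others; filled points passed an adjusted p of 0.05 in edgeR and red bars are list medians. The medians are -0.25 for the 10 genes, -0.22 for the other MAP kinase phosphatase genes and -0.069 for other immediate early genes, beside 0.0033 for all genes (dashed line). The list medians include EGR3, DUSP10 and ARC, respectively, which entered the test only through the GFP libraries.

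Transcripts of the pathway that leads to these genes showed no common direction. SRF had 81.6 ± 2.16 CPM in CTRB1 cells and 81.8 ± 3.14 CPM in GFP cells (SD, n = 3 each; edgeR adjusted p = 0.989). Of 6 genes of SRF, its cofactors and its ELK partners, 1 was lower (16.7%, beside 18.9% of all genes). This was ELK1, at a log2 change of -0.13 (edgeR adjusted p = 0.0235). It passed in 11 of 17 alternatives and not without GFP replicate 2 (edgeR adjusted p = 0.0547), GFP replicate 3 (0.118), CTRB1 replicate 1 (0.0678) or CTRB1 replicate 2 (0.0872). Of 23 genes of the RAS to ERK cascade, 6 were higher and 7 lower (26.1% and 30.4%), beside 18.6% and 18.9% of all genes. RPS6KA2, which encodes a kinase downstream of ERK, had a log2 change of 0.64 (edgeR adjusted p = 2.91e-05), and ERBB3 and ERBB2, receptor genes, 0.45 and 0.14. NRAS, which encodes a RAS protein, had -0.20 (edgeR adjusted p = 0.00147). SOS1, an exchange factor for RAS, had 0.16 (edgeR adjusted p = 0.00419). Phosphorylation was not measured.

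The authors' deposited table gives the same direction for all 10 genes. It comes from the same libraries, and calls 15.9% of 14158 genes lower and 14.7% higher. In the authors' deposited table, adjusted p-values were under 0.05 for the 8 genes called here, from 1.13e-41 for IER2 to 0.0159 for IER3, and were 0.513 for KLF6 and 0.397 for ZFP36. When means were compared by exact permutation (2-sided), p was 0.1 for each of the 8 called genes, the smallest value that 3 against 3 libraries allow. By the same exact permutation, p was 0.3 for KLF6 and 0.4 for ZFP36. In GENCODE v29, DUSP1, IER2, IER3 and EGR3 each overlap a non-coding gene on the opposite strand (AC022217.3, AC011446.2, IER3-AS1 and AC055854.1). Whether counting used strand is not stated, so reads of these pairs cannot be told apart.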

How the data were processed

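RNA of 6 HEK 293FT samples was made into paired-end libraries with Illumina protocols, per the labels. Per the submitters' processing notes the tools were HISAT2 2.2.1, HTSeq 0.6.1 and cutadapt 1.9.1, with no roles given. The notes name the mouse build GRCm38.p5, while the identifiers of the table are human. The deposited read counts per gene are whole and not normalized by the authors. The deposited FPKM and TPM values are the authors' own, per the file headers, and TPM was not used. The authors also deposited a log2 fold change with p-values, for which no tool is given in the sources used here.

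Counts were tested with edgeR 4.0.16 (quasi-likelihood F test) in R 4.3.3 with TMM factors (0.996 to 1.004). A gene was kept if 3 or more of the 6 libraries had an FPKM of 1 or higher, which left 11961. Total counts ran from 27514767 to 159616285 per library. The 2 groups were the only term, and p-values were adjusted by Benjamini-Hochberg over all genes kept. SE is the log2 change divided by the square root of F. The fit was also run on simulated counts with far fewer changed genes than were called here, and the outcome is not reported here. Alternatives were DESeq2 1.42.0, limma 3.58.1 on log2(FPKM + 1) and log2(FPKM + 0.1), other scalings and filters, thinned counts, a GC offset, the replicate block and leaving out each library.

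Members and gene lists were chosen with earlier results of these data known. Named genes are the 10 members, up to 6 called genes of each list by adjusted p (else the 2 with the smallest p), the EGR, IER and ZFP36 families, the 5 nearest profiles to EGR1 and to IER2, and CTRB1. Genes named beside these were chosen after their values were seen. A few genes that the rule names, and the blood marker list, are not reported here.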

Additional observations from a re-analysis of the deposited data

How the results depend on the processing

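Of the 10 genes, EGR1, IER2, IER5, DUSP1 and KLF10 passed in all 17 alternatives and KLF6 in none, and no gene changed direction in any. The log2 change ranged from -0.50 to -0.42 for EGR1, from -0.55 to -0.48 for IER2 and from 0.18 to 0.26 for KLF10. IER3 passed in 16 of 17, MYC in 15 of 17, EGR3 in 14 of 16 and ZFP36 in 1 of 16. EGR3 and ZFP36 gave no value at a mean FPKM of at least 5.

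Limma on log2(FPKM + 1) and on log2(FPKM + 0.1) called 1250 genes higher each, against 2221 in edgeR, and 1942 and 1935 lower, against 2258. In both, 1 of the 10 genes was higher, against 2, and 3 other immediate early genes, against 6. The higher share of calls was thus smaller on the FPKM scale, and the cause was not tested. With 1 library left out, 4 to 7 of the 10 genes were lower and 2 higher, and between 3 and 6 other immediate early genes were higher. Upper-quartile factors called 2722 higher and 1873 lower, with a median log2 change of 0.027.

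The replicate block called 2119 genes higher and 2201 lower, and with a GC offset 2156 and 2279. Both called 2 of the 10 genes higher and 6 lower. Of the other genes named, MXI1 (edgeR adjusted p = 0.0512) and DUSP10 (0.0777) did not pass with the block. Same-numbered libraries did not deviate together (correlations of -0.084, -0.014 and -0.09 across genes), and no library correlated best with its own number. The numbers were therefore not taken to pair them.

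EGR3 and ZFP36 had the fewest counts of the 10 genes, 60 to 105 and 130 to 207 in CTRB1 libraries, and a spread there (29.5% and 22.8%) above that of counting alone (11.2% and 8.19%).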
